A study of Mus musculus with 9 samples.

Results

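The NMDA receptor subunit genes were followed in the mouse hippocampus. These are the 7 genes Grin1, Grin2a, Grin2b, Grin2c, Grin2d, Grin3a and Grin3b, chosen by name from the 54532 genes listed in each expression table. Total RNA was sequenced from 9 hippocampal samples, 3 in each of 3 groups, and the labels do not say whether each sample was 1 mouse. All were labelled as C57BL/6 male mice in the protocol text, bought at 6 to 8 weeks of age. The Con group, wild type by its label, ate a standard diet. The HMD group ate a high-methionine diet for 8 weeks, which raises blood homocysteine. The Bet+HMD group ate the high-methionine diet for 8 weeks and then received betaine at 2.5% w/v in the drinking water for 2 weeks. The strain tags of the Bet+HMD samples do not all repeat the strain of the protocol text. Xist was at most 0.0449 FPKM and the Y-linked gene Ddx3y 12.7 to 21.2 FPKM in all 9 libraries, whereas the study's methods describe female mice.

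The NMDA receptor is a glutamate-gated cation channel that opens when glutamate binds while the postsynaptic membrane is depolarised, and it admits the calcium that starts long-term potentiation in the hippocampus. Each receptor needs GluN1, encoded by Grin1, together with GluN2 subunits (Grin2a to Grin2d), which bind glutamate and set the channel's kinetics, or GluN3 subunits (Grin3a, Grin3b), which lower its calcium permeability. Glycine or D-serine must be bound as co-agonist, and homocysteine, which accumulates when methionine is in excess, acts at this receptor. Betaine donates a methyl group that turns homocysteine back into methionine.

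The values are FPKM, fragments divided by a gene's length and the size of its library, in an earlier table with Con and HMD and a later table with all 3 groups. The test of HMD against Con used the earlier table, and both tests of Bet+HMD used the later one. Reads in genes numbered 16449388 to 18566712 per library of the earlier table, and 16031464 to 18291952 per library of the later one. The Bet+HMD libraries are held by the later table alone, so betaine, the 2 further weeks and the batch cannot be told apart. Their FPKM values summed to 249135 to 258514 per library, against 288439 to 307899 in Con and 289606 to 292361 in HMD. Their replicates also lay closer together, with a median coefficient of variation over all tested genes of 6.67%, against 15.2% in Con and 12.9% in HMD. HMD replicate 1 stood apart by its thalamic marker genes, whose summed level over 11 genes was 117 FPKM there, 40.1 and 51.0 FPKM in the other HMD libraries, 24.9 to 31.9 FPKM in Con and 34.9 to 37.8 FPKM in Bet+HMD. Pyramidal cell markers, which define the hippocampal principal neurons, summed to 846 to 1048 FPKM in the 9 libraries. Of these 7 markers, 1 was higher and 3 were lower in Bet+HMD than in HMD at an adjusted p under 0.05 by limma, and likewise against Con. The 4 dentate granule cell markers summed to 63.1 to 64.0 FPKM in Bet+HMD, 72.2 to 85.9 FPKM in HMD and 72.4 to 84.4 FPKM in Con. Of these 4, 1 was lower in Bet+HMD in each comparison. Over all genes tested, 22.8% were called higher and 25.5% lower against HMD, and 19.4% and 20.4% against Con. In bulk tissue, fewer cells of a type and less RNA per cell cannot be told apart.

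In the control hippocampus the 4 abundant subunit genes came in the order Grin2b, Grin1, Grin2a and Grin2c. In Con of the later table, the mean level was 31.0 ± 3.15 FPKM (SD, n = 3) for Grin2b, 25.7 ± 4.55 FPKM for Grin1, 21.1 ± 3.83 FPKM for Grin2a and 8.51 ± 1.25 FPKM for Grin2c. Neighbours among the first 3 overlapped between samples, with 27.5 to 33.6 FPKM in Grin2b, 21.7 to 30.6 FPKM in Grin1 and 16.8 to 24.3 FPKM in Grin2a, whereas Grin2c lay below all of them. Grin3a followed at 4.67 ± 0.613 FPKM and Grin2d, the subunit best known from interneurons and early development, at 1.92 ± 0.622 FPKM, and neither overlapped a neighbour. Grin2a and Grin2b encode GluN2A and GluN2B, the main GluN2 subunits of the adult forebrain, and together they made up most of the summed subunit level. Their Con shares were 22.6% ± 1.70 and 33.5% ± 1.69 (SD, n = 3), beside 27.6% ± 2.71 for Grin1. In Con the GluN2 genes together stood 1.29 ± 0.202 above Grin1 on a log2 scale. FPKM divides by the summed exon length, which ran from 3296 bases in Grin3b to 24842 bases in Grin2b, so levels can be set side by side per length.

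Grin3b, which encodes GluN3B and is best known from motor neurons, was at the floor of detection. In the later table it had 0, 1 and 0 reads in Con replicates 1 to 3, 0, 0 and 2 reads in HMD, and 7, 1 and 5 reads in Bet+HMD. A count of 3 reads or fewer in every library was taken as the floor, so Con and HMD lay at it and Bet+HMD lay above it in 2 of 3 libraries. The gene did not reach the mean of 1 FPKM needed for a test, and no fold change is given. Its span also overlaps Tmem259, which lies on the other strand at 803 to 1726 reads per library. The other 6 members passed that filter, so tests refer to those.

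**Figure D1:**
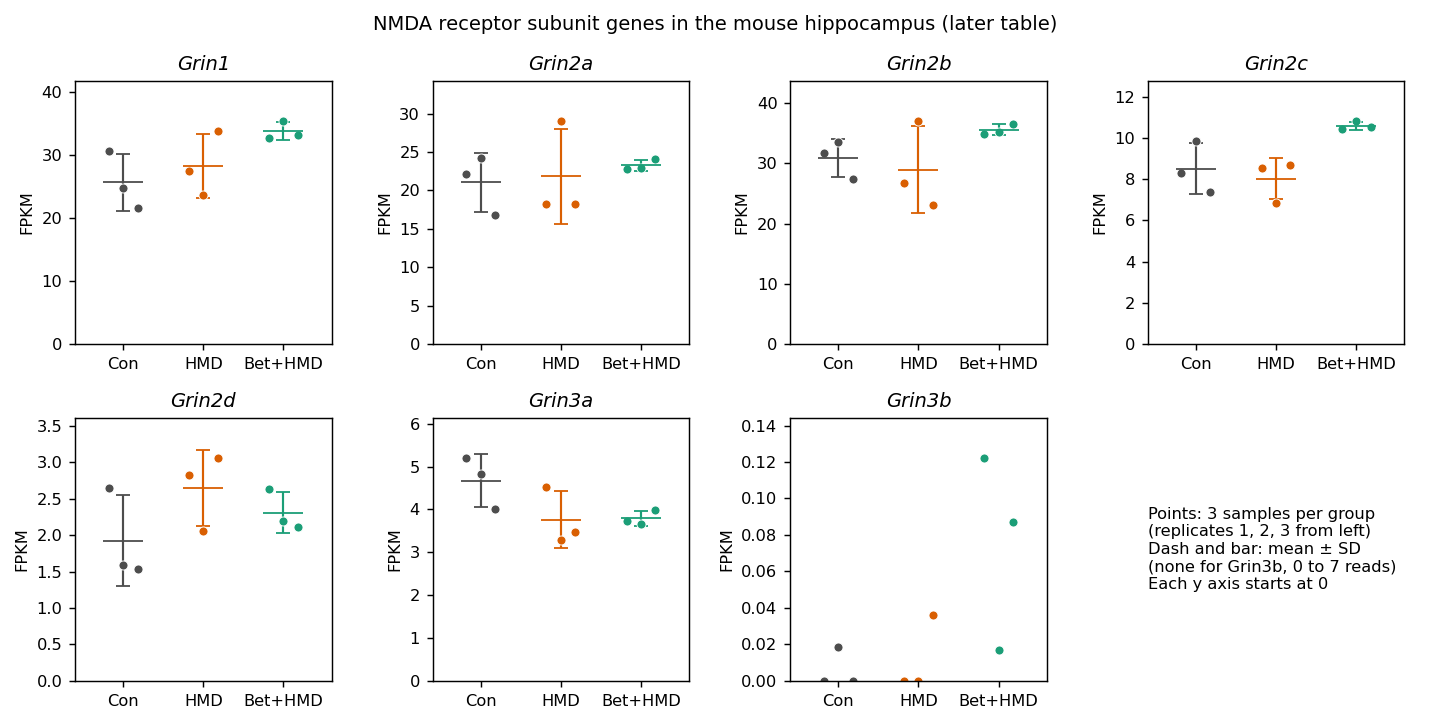
Level of each NMDA receptor subunit gene in FPKM (y axis, linear from 0, scaled per gene) in the 3 groups of the later table. Points are samples, and dashes with bars are the mean ± SD of 3, drawn for every gene except Grin3b. Bet+HMD samples of Grin2c sit at 10.4 to 10.8 FPKM, above all Con and HMD samples, while HMD samples of Grin2a and Grin2b spread widely.

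The high-methionine diet was first compared with the standard diet. No subunit gene passed the test, and the samples of the groups overlapped for each of the 6 tested. The intervals are wide enough to hold differences of up to 0.75 in size. Differences are given as log2 fold changes of log2(FPKM + 1), which understate the change of low genes, from linear models in limma with p-values adjusted by Benjamini-Hochberg over all genes tested. Of the 6 subunit genes tested, 0 passed an adjusted p under 0.05 and 0 had an unadjusted p under 0.05, against 0% of all 12989 genes called and 592 genes with an unadjusted p under 0.05. The groups did not overlap for 0 of 6 members, beside 9.37% of all genes. The median difference was -0.01 over the 6 members and -0.0038 over all genes, with 3 members higher and 3 lower in sign.

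Grin1, the subunit every receptor carries, measured 30.0, 24.4 and 21.1 FPKM in Con replicates 1 to 3 and 27.3, 23.2 and 33.5 FPKM in HMD in the earlier table. The ranges overlapped, with the highest value in HMD replicate 3 and the lowest in Con replicate 3. The difference was 0.15 (95% interval -0.26 to 0.55, adjusted p = 0.980). It was 0.27 without Con replicate 1 or HMD replicate 2, 0.0302 without Con replicate 3 and 0.0126 without HMD replicate 3.

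Grin2a measured 21.7, 23.8 and 16.4 FPKM in Con and 18.2, 28.3 and 17.8 FPKM in HMD. Grin2b, whose receptors close more slowly, measured 31.3, 33.0 and 26.8 FPKM in Con and 26.5, 36.1 and 22.7 FPKM in HMD. In both genes HMD replicate 2 was the highest library and the other HMD libraries lay low, so the groups overlapped. The differences were 0.04 (interval -0.45 to 0.53, adjusted p = 0.992) and -0.11 (interval -0.53 to 0.30, adjusted p = 0.980).

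The widest shifts in size were in the rarer subunits, and neither passed the test. Grin2d measured 2.57, 1.62 and 1.49 FPKM in Con and 2.76, 2.00 and 3.05 FPKM in HMD, a difference of 0.32 (interval -0.11 to 0.75, adjusted p = 0.980). Two-sided and unadjusted, its p was 0.12. Grin3a, encoding GluN3A, which is known to hold back synapse maturation, measured 5.16, 4.83 and 3.90 FPKM in Con and 4.51, 3.19 and 3.43 FPKM in HMD, a difference of -0.26 (interval -0.60 to 0.08, unadjusted p = 0.119). Con replicate 1 reached into the HMD range for Grin2d, and HMD replicate 1 reached into the Con range for Grin3a. Grin2c differed by -0.06 (interval -0.39 to 0.27). Without HMD replicate 1, the library with high thalamic markers, Grin2d differed by 0.29 and Grin3a by -0.38, and no member was called. All 9 thalamic markers tested were higher in sign in HMD, and for 7 of them the groups did not overlap, beside 9.37% of all genes. Their part in the values of the subunit genes was not tested.

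The relation between subunits was then examined within samples. The log2 ratio of Grin2a to Grin2b, often used to describe the maturity of NMDA receptors, was -0.53, -0.47 and -0.71 in Con and -0.54, -0.35 and -0.35 in HMD. HMD replicate 1 lay within the Con range and the other HMD libraries above it, and the difference was 0.16 (exact permutation test, two-sided p = 0.3, adjusted p = 0.6 over 6 ratio tests). With 3 samples against 3 that test cannot go below 0.1. The summed GluN2 genes relative to Grin1 gave a log2 ratio of 1.09, 1.48 and 1.30 in Con and 1.03, 1.66 and 0.64 in HMD. The HMD libraries spanned the whole Con range, with a difference of -0.18 (exact permutation test, p = 0.6, adjusted p = 0.72).

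**Figure D2:**
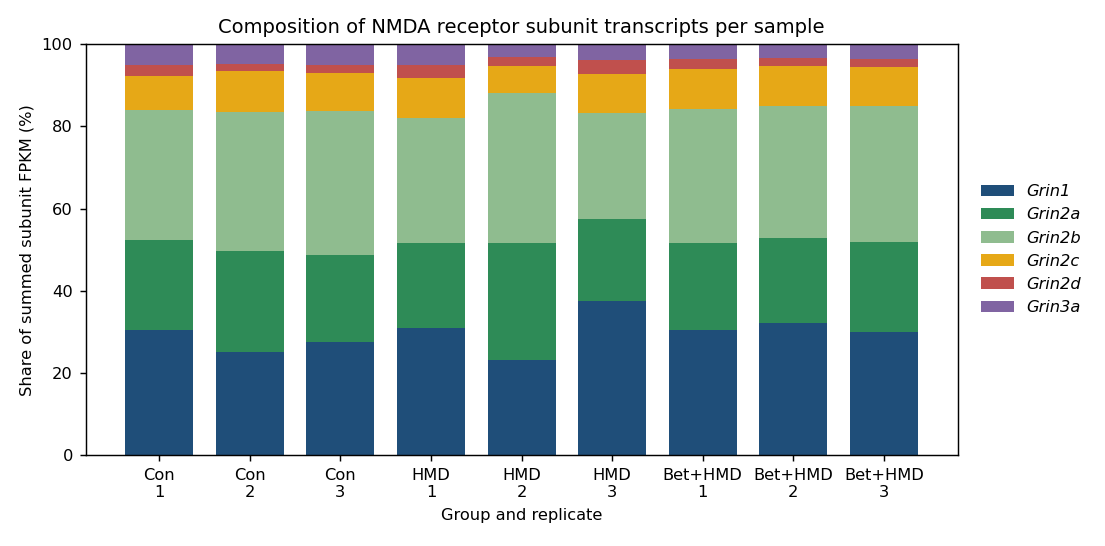
Share of the summed subunit FPKM (y axis, percent) taken by 6 NMDA receptor subunit genes in each of the 9 samples of the later table. Grin1 takes 30.0% to 32.1% in the Bet+HMD samples and 23.3% to 37.4% in the HMD samples.

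HMD replicates 2 and 3 therefore sat at opposite ends of the subunit balance. Grin1 took 23.3% of the summed level in the library with the lowest HMD share and 37.4% in the one with the highest, against 25.0% to 30.4% in Con. Over the 6 Con and HMD samples, Grin2a and Grin2b went together (Pearson r = 0.90, Spearman rho = 0.83, permutation p = 0.0167 and 0.0583), and so did Grin1 and Grin2d (r = 0.90, rho = 0.89, permutation p = 0.0194 and 0.0333). None of the 15 pairs passed adjustment, with an adjusted p of 0.146 for r in both of these pairs and 0.438 for rho. Without the 2 samples farthest from the median, r was 0.95 for the first pair and 0.75 for the second, over 4 samples. The samples share their libraries and depth between genes.

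Betaine after the high-methionine diet was compared with the diet alone. Grin2c was higher in Bet+HMD, and the other 5 subunit genes tested were not called. Of 6 members, 1 was called, against a background of 48.3% of all 13672 genes. It was called in the higher direction, as were 22.8% of all genes, and 0 members were called lower, beside 25.5%. The groups did not overlap for 1 of 6 members, beside 60.1% of all genes. The median difference was 0.19 over the members and -0.03 over all genes.

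Grin2c encodes GluN2C, best known from cerebellar granule cells and, in the forebrain, from astrocytes and some interneurons. It measured 8.52, 6.87 and 8.66 FPKM in HMD and 10.4, 10.8 and 10.5 FPKM in Bet+HMD, beside 8.29, 9.85 and 7.38 FPKM in Con of the same table. Every Bet+HMD sample was above every sample of both other groups. The difference from HMD was 0.37 (interval 0.14 to 0.59, adjusted p = 0.0167 by limma), or 1.32-fold between the means. It passed under all 11 alternatives that kept every sample, with an adjusted p of 0.00357 to 0.0397. Leaving out Bet+HMD replicate 1, 2 or 3 gave an adjusted p of 0.0513, 0.0633 and 0.0534, and leaving out the thalamus-marked HMD replicate 1 gave 0.41 (adjusted p = 0.0265). The 7 astrocyte markers summed to 375 to 396 FPKM in Bet+HMD against 442 to 468 FPKM in HMD, with 3 of the 7 called lower. The 7 interneuron markers summed to 199 to 228 FPKM in Bet+HMD against 272 to 347 FPKM in HMD, with 4 of the 7 called lower. The 5 cerebellar markers summed to at most 1.47 FPKM in any library. The 5 neocortical markers summed to 53.3 to 54.1 FPKM in Bet+HMD against 28.8 to 43.3 FPKM in HMD, with 3 of the 5 called higher. These counts stand beside 25.5% of all genes called lower and 22.8% called higher. The part of these markers in the result was not tested.

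Grin1, Grin2b and Grin2a did not pass the test. Grin1 measured 27.4, 23.7 and 33.8 FPKM in HMD and 32.7, 35.4 and 33.2 FPKM in Bet+HMD, with HMD replicate 3 inside the Bet+HMD range, a difference of 0.26 (interval -0.03 to 0.55, adjusted p = 0.123). Grin2b measured 26.8, 37.0 and 23.1 FPKM in HMD and 34.9, 35.3 and 36.6 FPKM in Bet+HMD. The highest library was again HMD replicate 2, and the difference was 0.32 (interval -0.05 to 0.68, adjusted p = 0.135). Grin2a measured 18.2, 29.0 and 18.2 FPKM in HMD and 22.8, 23.0 and 24.1 FPKM in Bet+HMD. The Bet+HMD libraries fell between the HMD values, with a difference of 0.12 (interval -0.28 to 0.52, adjusted p = 0.587). These values turned on single HMD libraries. Without HMD replicate 2, Grin2a and Grin2b were both called, at 0.34 (adjusted p = 0.00503) and 0.50 (adjusted p = 0.00335), whereas Grin1 was at 0.14 (adjusted p = 0.263). Without HMD replicate 3, Grin1 was called at 0.39 (adjusted p = 0.0118), whereas Grin2a was at 0.0132 (adjusted p = 0.958) and Grin2b at 0.17 (adjusted p = 0.325).

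Grin2d and Grin3a did not pass the test either. Grin2d measured 2.82, 2.06 and 3.06 FPKM in HMD and 2.63, 2.19 and 2.11 FPKM in Bet+HMD, and Grin3a 4.53, 3.29 and 3.47 FPKM in HMD and 3.72, 3.66 and 3.98 FPKM in Bet+HMD. Both pairs of groups overlapped. The Grin2d difference was -0.13 (adjusted p = 0.442), and it was 0.0137 after rescaling to TPM, -0.31 after quantile normalization (adjusted p = 0.0751) and -0.25 without HMD replicate 2 (adjusted p = 0.0908). The Grin3a difference was 0.02 (adjusted p = 0.921), and it was 0.21 after TPM (adjusted p = 0.236) and -0.09 after quantile normalization (adjusted p = 0.504).

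The scale mattered for how many members passed. TPM, which makes the values of every library sum to the same total, moved the median of all genes from -0.03 to 0.16 and the share of calls that were higher from 47.2% to 69.5%. On that scale 3 members were called, all higher than HMD, with Grin1 at 0.46 (adjusted p = 0.0228), Grin2b at 0.52 (adjusted p = 0.0303) and Grin2c at 0.59 (adjusted p = 0.00357). On the same scale 6470 of all 13672 genes were called, 4496 of them higher. These differences stand beside the median of 0.16 over all genes on the same scale. Quantile normalization and limma voom on the recovered reads also called 3 members, all higher. They called 6460 and 6798 of all 13672 genes. Of all genes called, 47.1% were higher after quantile normalization (median of all genes -0.05) and 57.9% with voom (median 0.06).

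**Figure D3:**
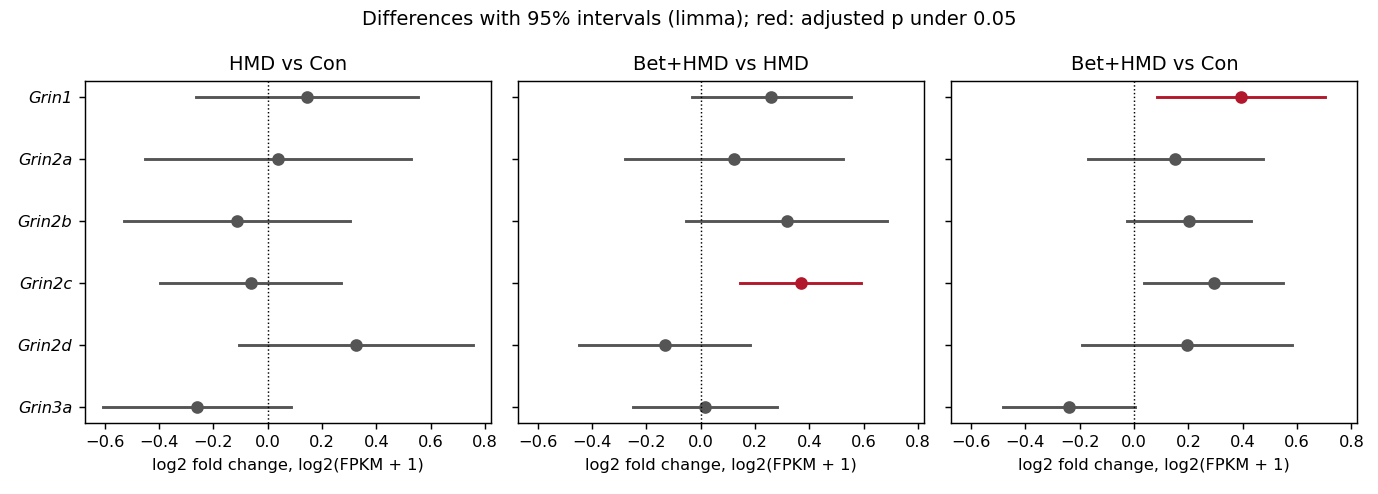
Difference in log2(FPKM + 1) of 6 subunit genes in the 3 comparisons (x axis, log2 fold change), with points for the limma estimate and bars for its 95% interval. Red marks an adjusted p under 0.05, reached by Grin2c in Bet+HMD vs HMD at 0.37 and by Grin1 in Bet+HMD vs Con at 0.39.

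Bet+HMD was also set against the standard diet. These values share the Bet+HMD samples with the comparison above. Grin1 was higher in Bet+HMD at 32.7, 35.4 and 33.2 FPKM against 30.6, 24.7 and 21.7 FPKM in Con, and no sample overlapped. The difference was 0.39 (interval 0.09 to 0.70, adjusted p = 0.0493), or 1.31-fold between the means. It lay just inside the threshold. The adjusted p was 0.0506 with a pseudocount of 0.1, 0.0626 with all 3 groups in one fit and 0.0857 with no filter on low genes, and it was 0.0693 to 0.155 without Con replicate 2 or 3 or any Bet+HMD replicate. Of 6 members, 1 was called, against 39.7% of all 13643 genes. The call was higher, as in 19.4% of all genes, and 0 members were called lower, beside 20.4%. The groups did not overlap for 4 of 6 members, beside 55.1% of all genes.

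The other 3 members without overlap were Grin2b, Grin2c and Grin3a, and none of them was called with all samples. Grin2b differed by 0.20 (adjusted p = 0.140) and Grin2c by 0.29 (interval 0.04 to 0.55, adjusted p = 0.0687). Grin3a was 5.20, 4.82 and 4.001 FPKM in Con and at most 3.98 FPKM in Bet+HMD, a difference of -0.24 (adjusted p = 0.107). The call depended on single Con libraries. Without Con replicate 1 only Grin1 was called, at 0.52 (adjusted p = 0.0135), without Con replicate 2 only Grin2c, higher at 0.39 (adjusted p = 0.0127), and without Con replicate 3 only Grin3a, lower at -0.33 (adjusted p = 0.0211). Its share of the summed subunit level was 5.04% ± 0.153 in Con, against 4.07% ± 0.970 with HMD and 3.46% ± 0.140 with Bet+HMD (SD over 3). Grin2a differed by 0.15 (adjusted p = 0.410) and Grin2d by 0.20 (adjusted p = 0.380). After rescaling to TPM 3 members were called higher, Grin1, Grin2b and Grin2c, beside a median of 0.17 over all genes. On that scale 5412 of all 13643 genes were called, and the share of all calls that were higher rose from 48.8% to 73.5%.

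The level summed over the subunit genes ran from 107 to 111 FPKM in Bet+HMD, from 88.3 to 102 FPKM in HMD and from 78.9 to 101 FPKM in Con, so the Bet+HMD libraries lay above the others. Their balance was also the most even between samples. The Grin2a to Grin2b log2 ratio was -0.62, -0.62 and -0.61 in Bet+HMD against -0.55, -0.35 and -0.34 in HMD of the same table, with no overlap and a difference of -0.20 (exact permutation test, p = 0.1, the smallest possible, adjusted p = 0.6). Against Con the difference was -0.05 (exact permutation test, p = 0.6, adjusted p = 0.72). The GluN2 to Grin1 log2 ratio differed by -0.03 from HMD and by -0.20 from Con (exact permutation tests, p = 0.9 and 0.3, adjusted p = 0.9 and 0.6). The coefficient of variation of the 6 members was 1.93% to 12.2% in Bet+HMD, 12.5% to 28.6% in HMD and 10.2% to 32.3% in Con. Over all tested genes its median was 6.67%, 12.9% and 15.2%.

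Grin2c and Grin1 were the members called in the comparisons with betaine, so the DNA just before their start sites is shown. RefSeq's table for GRCm38.p6 held this window for 4 of the 7 members (Grin1, Grin2c, Grin2d, Grin3b). Each line is the 250 bases before the gene's start, read on the minus strand, on which both genes lie. Capitals mark the GC box GGGCGG, the core of the binding motif of Sp-family factors, searched on both strands with overlaps counted.

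Grin2c chr11:115267244-115267493: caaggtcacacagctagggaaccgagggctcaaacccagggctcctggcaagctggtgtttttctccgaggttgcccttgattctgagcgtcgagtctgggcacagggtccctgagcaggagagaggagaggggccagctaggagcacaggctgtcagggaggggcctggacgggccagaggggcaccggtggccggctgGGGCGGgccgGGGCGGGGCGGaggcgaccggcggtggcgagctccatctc
Grin1 chr2:25319188-25319437: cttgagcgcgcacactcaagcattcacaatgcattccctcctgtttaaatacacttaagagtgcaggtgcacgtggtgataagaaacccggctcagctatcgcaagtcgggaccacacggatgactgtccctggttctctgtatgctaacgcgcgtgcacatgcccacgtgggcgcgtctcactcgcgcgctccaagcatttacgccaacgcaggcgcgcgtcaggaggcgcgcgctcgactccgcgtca

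The Grin2c window held 3 GC boxes, a pair of which overlap, with the nearest beginning 35 bases before the start, and its GC content was 68.8%. The Grin1 window held 0, at a GC content of 58.8%. The windows of Grin2d and Grin3b also held 0, at 54.4% and 46%. RefSeq's starts of Grin2d and Grin3b differ from the spans given below, and the Grin2d window lies inside the Grin2d span. The motif was found in 32.7% of 32851 RefSeq promoter windows of the same length, whose median GC content was 52.4%. A match describes letters only.

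At the Grin1 locus the antisense gene differed more than Grin1 itself in both comparisons with betaine. Grin1 (ENSMUSG00000026959) spans chr2:25291181-25319187 on the minus strand of GRCm38, and the antisense gene Grin1os (ENSMUSG00000085830) lies within it at chr2:25291220-25298925 on the plus strand. Grin1os was singled out after its values were seen, and it reached the mean of 1 FPKM needed for a test only through the Bet+HMD libraries. It had 0.535, 0.768 and 0.526 FPKM in Con, 0.617, 0.316 and 0.573 FPKM in HMD and 6.37, 5.77 and 6.50 FPKM in Bet+HMD, or 26 to 36, 14 to 31 and 295 to 327 reads. All Bet+HMD libraries were far above all others. The difference was 2.27 from HMD (interval 2.00 to 2.54, adjusted p = 3.36e-05) and 2.17 from Con (interval 1.92 to 2.41, adjusted p = 0.000131), or 12.4-fold and 10.2-fold between the means. By p-value it ranked 57 of 13672 and 16 of 13643 genes, among genes chosen by that same filter. With no filter on low genes its adjusted p was 0.000359 and 0.000758 by limma. Among antisense genes at large, 57.9% of 228 and 56.5% of 230 tested were called higher in these comparisons, beside 22.8% and 19.4% of all genes. The filter also admits antisense genes that are high in Bet+HMD alone. After TPM, quantile normalization, voom and every omitted sample the Grin1os difference kept its direction, at 1.97 or more.

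Relative to Grin1 in the same sample, Grin1os stood at a log2 ratio of -5.84, -5.01 and -5.37 in Con, -5.47, -6.23 and -5.88 in HMD and -2.36, -2.62 and -2.35 in Bet+HMD. The ratio was 10.7-fold higher in Bet+HMD than in HMD and 7.79-fold higher than in Con (exact permutation tests, p = 0.1 each, the smallest possible). These p-values add nothing to the levels above, since Grin1os was chosen after those levels were seen. Between HMD and Con it differed by -0.51 (exact permutation test, p = 0.2). Of the 2891 exon bases of Grin1os in 4 exons, 1307 (45.2%) also lie in exons of Grin1 in GENCODE M21, and these are 13.5% of the Grin1 exon bases. Whether reads were counted by strand is not stated, so reads of Grin1 and Grin1os in the shared bases cannot be told apart here.

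**Figure D4:**
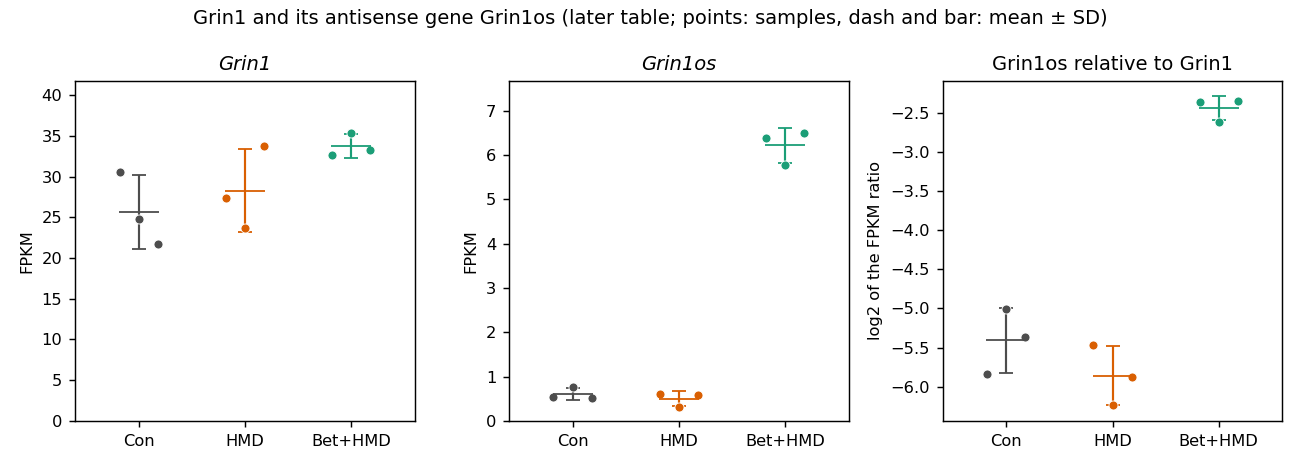
Grin1 and Grin1os in FPKM (left and middle, linear axes from 0) and the log2 ratio of Grin1os to Grin1 (right) in the samples of the later table, with points for samples and dashes with bars for mean ± SD of 3. Grin1os is 5.77 to 6.50 FPKM in Bet+HMD and at most 0.768 FPKM elsewhere.

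Across the 7 members 12 genes overlap a member's span, 9 of them with reads. At Grin2b (chr6:135713233-136173511, minus strand) the antisense genes Gm26653 and Gm14330 had at most 14 and 8 reads. At Grin2d (chr7:45831883-45878378, minus strand) the antisense gene Gm45441 was 1.70 ± 0.378 FPKM in Con, 1.09 ± 0.153 FPKM with HMD and 0.874 ± 0.216 FPKM with Bet+HMD (SD over 3), and the protein-coding gene Kdelr1 was 22.4 to 24.0 FPKM in the group means. Values of Grin2d are therefore uncertain to the extent that reads were not split by strand. At Grin2c (chr11:115249169-115267243, minus strand) the single overlapping gene had at most 2 reads, at Grin3a (chr4:49661611-49845744, minus strand) Ppp3r2 had at most 11, and no gene overlapped Grin2a (chr16:9567898-9995560, minus strand). Grin3b lies at chr10:79970715-79977190 on the plus strand.

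The receptor works within a set of partner genes, of which 54 were listed by role: 19 scaffold and anchoring genes, 8 genes that supply or clear the co-agonists, and 27 genes of calcium signalling and channel phosphorylation. Between HMD and Con, 0 of 52 tested were called by limma, as were 0% of all genes. An unadjusted p under 0.05 was reached by 1, Camk2d, a CaMKII subunit, at 0.38, beside 592 of all 12989 genes. The smallest p-values otherwise belonged to Dapk1 (0.23), Lin7b (-0.40) and Srr, the enzyme that makes D-serine (-0.23), each with an adjusted p of 0.980.

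In Bet+HMD against HMD, 10 partners rose and 9 fell of 51 tested, and 32 were not called, beside 22.8% of all genes called higher and 25.5% lower. Scaffold genes gave 6 rises and 2 falls of 19, co-agonist genes 2 and 1 of 5, and signalling genes 2 and 6 of 27. Shank1, a postsynaptic scaffold, was 75.4 ± 3.51 FPKM in Bet+HMD and 39.6 ± 4.62 FPKM in HMD (SD, n = 3), a difference of 0.92 (adjusted p = 0.000367). Slc6a9, the glial glycine transporter GlyT1, differed by 0.64 (adjusted p = 0.00346). Phgdh, the first enzyme of serine synthesis, fell by 0.80 on the log2 scale, from 25.8 ± 1.62 to 14.5 ± 2.21 FPKM (SD, n = 3, adjusted p = 0.00151). Lin7c, an adaptor that carries receptors, fell by 0.63 (adjusted p = 0.00494) and Ppp3cb, a catalytic subunit of calcineurin, by 0.55 (adjusted p = 0.0143). The direction of the group depended on the scale. Partners gave 20 rises and 3 falls after TPM, 20 and 2 after quantile normalization, and 15 and 9 with voom. Of all 13672 genes, 6470, 6460 and 6798 were called on these scales, and 69.5%, 47.1% and 57.9% of those calls were higher.

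Against Con, 9 partners rose and 9 fell of 52 tested, beside 19.4% and 20.4% of all genes, again with Shank1 (0.82) and Slc6a9 (0.51) among the 3 largest rises. The largest falls were Phgdh (-0.97, adjusted p = 0.00142), Slc38a5, a glutamine and glycine carrier (-0.62, adjusted p = 0.0391), and Ppp3ca, another calcineurin subunit (-0.57, adjusted p = 0.00637). Slc38a5 is a low gene, at 0.690 FPKM in Bet+HMD and 1.61 FPKM in Con. It reached the mean of 1 FPKM needed for a test only through Con, and against HMD it was not tested. Scaffold genes gave 4 rises and 2 falls of 19, co-agonist genes 1 and 2 of 6, and signalling genes 4 and 5 of 27. After TPM the partners gave 15 rises and 4 falls. On that scale 5412 of all 13643 genes were called, and 73.5% of those calls were higher. The median difference of the 52 partners was -0.06, beside -0.04 over all genes.

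The protein-coding genes whose log2(FPKM + 1) followed each member most closely over the 9 samples of the later table were taken from 7194 or 7195 genes with a mean of at least 5 FPKM. For Grin1 these were Ap3b2 (r = 0.98, and 0.99 after removing group means) and Csnk1e (0.97 and 0.94). For Grin2a they were Camk4 (0.97 and 0.97) and Samd12 (0.97 and 0.98), and for Grin2b Zfp871 (0.97 and 0.96) and Phlpp2 (0.97 and 0.96). For Grin2c they were Cxcl12 (0.95 and 0.85) and Tbc1d30 (0.94 and 0.86). For Grin2d they were Adam15 (0.93 and 0.93) and Cacng7 (0.88 and 0.94), and for Grin3a Rab22a (0.97 and 0.96) and Champ1 (0.93 and 0.95). Each was picked as the highest of so many correlations, and the genes share the batch and depth of their samples.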

How the data were processed

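Gene expression was deposited by the authors as FPKM in 2 tables, with gene lengths and positions. The labels' processing notes name HISAT2 2.1.0, featureCounts 1.5.0-p3 and the build mm10, and the study's methods describe ribosomal RNA depletion, a stranded kit and paired ends and name other versions. At least 99.9% of positive values in a library gave whole reads (tolerance 0.02) when multiplied by gene length and library size. The library sizes were inferred, by taking the smallest positive product of FPKM and gene length in each library as 1 read. These inferred sizes were 0.953 to 1.053 times the sum of recovered reads. Genes averaging 1 FPKM or more were fitted as log2(FPKM + 1) with limma 3.58.1 (R 4.3.3, moderated, intensity trend, two-sided, adjusted p under 0.05), on the 2 groups compared. limma was used in place of the study's count-based test because the deposited values are not counts. p-values measure the spread between 3 samples a group, which may be technical. Columns named COL were read as Con, an inference. The deposited tables gave no column without a sample. The fit was tested on simulated data with equal spread in the groups and changes far larger than those of the members. That test does not show what the fit can detect at the sizes of the members. All 7 members are named, with the 3 largest rises and falls of called partners per comparison (where none was called, the 2 smallest p in each direction), the 2 genes most like each member, and overlapping genes. A partner that the rule names is not reported here. The members and lists were chosen with earlier results of these data known. Alternatives were another pseudocount, filters, scalings, models, the replicate block and leaving out each sample. Ratio tests were exact permutation tests (scipy 1.17.1).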

Additional observations from a re-analysis of the deposited data

How the results depend on the processing

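No subunit or partner gene was called between HMD and Con under any of 12 alternatives or without any single sample. In Bet+HMD vs HMD 1 subunit gene was called, beside 6607 of all 13672 genes. TPM, quantile normalization and voom on recovered reads each called 3, beside 6470, 6460 and 6798 of all genes. Leaving out single samples gave 0 to 3 (0 without any Bet+HMD replicate, 3 without HMD replicate 2). Calls over all genes moved too, to 4782 to 4858 without a Bet+HMD replicate and 6990 without HMD replicate 2. In Bet+HMD vs Con, also with 1, those scalings each called 3. They called 5412, 5296 and 5511 of all 13643 genes. Of all genes called there, 73.5%, 49.5% and 59.7% were higher. A pseudocount of 0.1, no filter, no intensity trend and all 3 groups in one fit each called 0 subunit genes. These settings called 5336 of 13643, 5830 of 31061, 5368 of 13643 and 5324 of 13464 genes. Leaving out single samples gave 0 to 1 (Grin1, Grin2c or Grin3a, according to the Con replicate left out). Calls over all genes then ran from 3302 to 6269, beside 5422 with every sample. Of the partners, 19 were called against HMD (11 to 22 with single samples left out, lowest without Bet+HMD replicate 2) and 18 against Con (11 with no filter, 6 to 20 with single samples left out, 6 without any Bet+HMD replicate). The cause was not tested. In sign, Grin2d in Bet+HMD vs HMD turned to 0.0137 with TPM and Grin3a to -0.0919 with quantile normalization.

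With single samples left out, Grin1 ran from 0.0126 to 0.27, Grin2a from -0.17 to 0.15, Grin2b from -0.29 to 0.0306 and Grin2c from -0.15 to 0.0429 in HMD vs Con, and Grin3a from -0.0550 to 0.13 in Bet+HMD vs HMD. The Grin2a to Grin2b ratio ran from -0.12 to 0.00121 in Bet+HMD vs Con, and the GluN2 to Grin1 ratio from -0.45 to 0.0580 in HMD vs Con and from -0.26 to 0.24 in Bet+HMD vs HMD.

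Replicate numbers are shared between groups, but same-numbered samples did not deviate together in every pair (correlations -0.06 to 0.35 for HMD and Con, with 2 of 3 samples closest to their own number, and -0.18 to 0.02 for the pairs with Bet+HMD). With 3 samples a group these correlations cannot decide whether same-numbered samples were paired. A replicate block called 0 subunits and 9 partners in Bet+HMD vs Con, and 1 and 17 in Bet+HMD vs HMD. Of all genes it called 3924 of 13643 and 5615 of 13672. Grin3b had 0 to 7 reads, too few for a test, and 3 samples a group limited the ratio tests.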
